A study of Mus musculus with 4 samples.

Results

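LSK cells of Sf3b1+/- mice were compared with LSK cells of wild-type mice, both sorted directly from the marrow in which the cells had formed and called native here. LSK cells are marrow cells without lineage markers that carry c-Kit and Sca-1, a fraction that holds the blood stem cells and the multipotent progenitors. Both native groups were C57BL/6 mice aged 20 weeks. The Sf3b1+/- mice carried a single functional copy of Sf3b1, and the labels give 4 mice for this collection without saying how many stand behind each array. The comparison uses 2 of the 4 arrays of the series, the array of wild-type and the array of Sf3b1+/- native LSK cells, chosen by their labels. The other 2 arrays held CD45.2+ LSK cells of either genotype recovered 9 months after whole marrow had been transplanted into lethally irradiated CD45.1+ mice, with 5 recipients given for that collection. They are not shared with the native pair, and their Sf3b1+/- minus wild-type difference is printed beside the native values as "transplanted".

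Sf3b1 encodes the scaffold protein of SF3b, a complex that grips the intron branch site as the U2 particle joins the spliceosome. Its human counterpart is recurrently mutated in myelodysplastic syndromes with ring sideroblasts. Within the LSK fraction, progenitors already carry low levels of the transcripts of the lineages that they will enter, so its RNA reports on early lymphoid, megakaryocytic, erythroid and granulocytic programmes as well as on the stem cell state.

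Of 20886 genes with a symbol on the array, 12317 were well above background on both native arrays, and these are called measured. Another 220 were above background on the wild-type array only, 397 on the Sf3b1+/- array only and 7939 on neither. Signals are given in intensity units of the wild-type native array, after every array had been shifted by its own 75th percentile over detected probes, and differences are log2 values of Sf3b1+/- minus wild type. With 1 array a side no difference has a replicate check or a p-value, and cell preparation, RNA amplification and genotype cannot be told apart. The only errors available are technical. Replicate spots of a probe gave an SD of 0.16 for a single-spot difference, and different probes of 1 gene differed by an SD of 0.20. Over all measured genes the median difference was -0.00, the robust SD was 0.23, and the central 95% of genes lay between -0.68 and 0.54.

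At least 2-fold higher in native Sf3b1+/- cells were 29 genes, or 0.235% of those measured, and 85 genes, or 0.69%, were at least 2-fold lower. At a fold of 1.5 the counts were 239 higher (1.94%) and 429 lower (3.48%), while 50.5% of measured genes had a negative difference of any size. The spread depended on brightness: in the dimmest quintile of genes by signal 6.29% were at least 1.5-fold higher and 8.97% lower, against 0.162% and 1.54% in the brightest quintile. Scaled to the RNA spike-ins instead, the median of all measured genes was 0.23 higher in Sf3b1+/- cells and the 2-fold counts were 93 higher and 38 lower, so each value below is relative to the bulk of the measured genes. With normexp, a background correction that damps dim signals, the 2-fold counts were 8 higher and 23 lower. In bulk RNA, fewer cells of a type and less RNA per cell cannot be told apart.

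**Figure D1:**
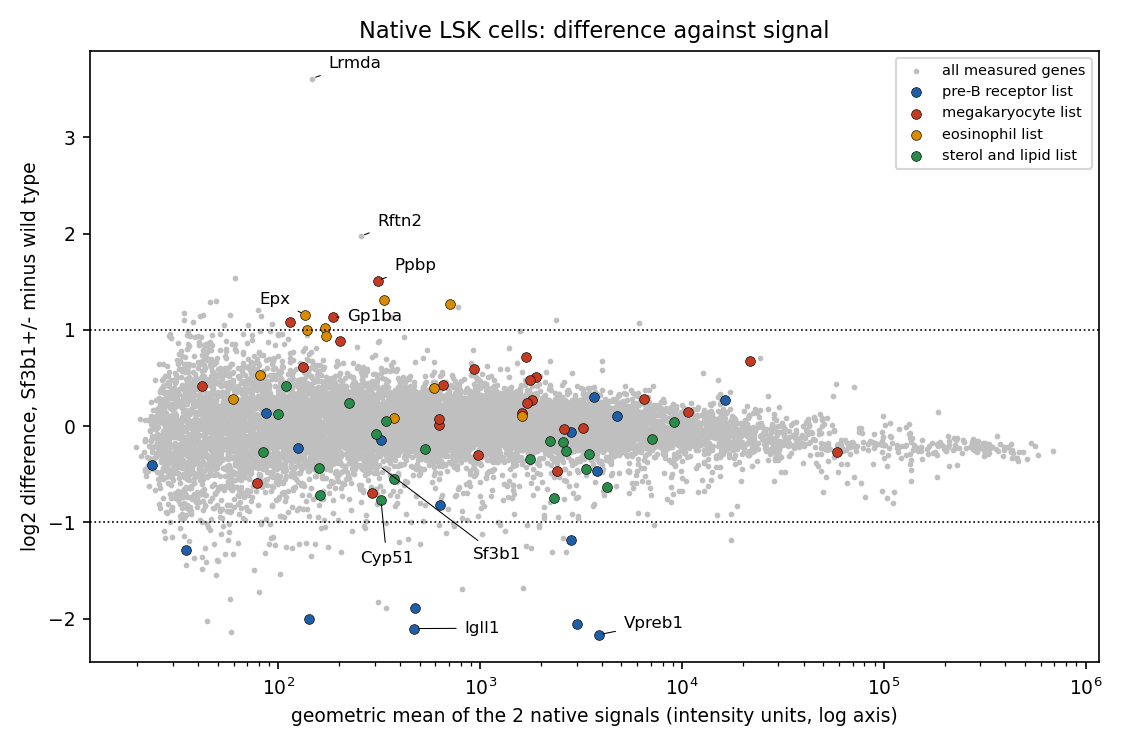
Log2 difference between the 2 native arrays (vertical axis) against the geometric mean of the native signals (horizontal axis, intensity units, log scale) for the 12317 measured genes in grey, with members of 4 gene lists in colour and dotted lines at 2-fold. Most grey points widen around 0 toward low signal, the surrogate light chain genes lie near -2 at signals up to that of Vpreb1, and Lrmda stands alone at 3.61.

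Sf3b1 (NM_031179) had a signal of 362 units on the wild-type and 272 units on the Sf3b1+/- native array. The Sf3b1+/- signal was 75.4% of wild type, a difference of -0.41, and the transplanted difference was -0.11. It was read by 1 probe, and the sources used here do not tell whether that probe lies in the disrupted part of the gene. None of the other 6 subunits of SF3b was at least 1.5-fold apart. Sf3b3, a large subunit, was highest at 0.48, and Sf3b6, the subunit that touches the branch point, was lowest after Sf3b1 at -0.31. Of 19 measured U2 partner proteins, only Rbm5, a splicing regulator of the U2 recruitment step, passed 1.5-fold, with 3169 against 5069 units (0.68, transplanted 0.38). None of the 12 disease-linked splicing factors, 15 factors of nonsense-mediated decay or 17 SR proteins was 1.5-fold apart. None of 7 genes whose transcripts are known to be mis-spliced in SF3B1-mutant human cells passed 1.5-fold. The arrays read transcript amounts and not splice junctions.

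The sorted fraction was first checked against its defining markers. All 10 LSK and progenitor surface markers with a probe were measured and none was 1.5-fold apart, with a median of -0.04. Kit, the stem cell factor receptor used in the sort, had 5574 units in wild type and 6076 in Sf3b1+/- cells (0.12). Ly6a, which encodes Sca-1, had 1739 and 1514 units (-0.20). Slamf1, the gene of CD150 on stem cells, stood at 0.09, and Flt3, the receptor of multipotent progenitors with lymphoid potential, at 0.13. The native surface and transcription factor sets of stem cells were also centred near 0, with medians of 0.00 over 17 genes and 0.05 over 25. Exceptions among the factors were Mycn, a Myc family member, at 1.24, Gfi1b, a repressor that directs megakaryocytes and red cells, at 0.71, Ndn, a growth suppressor, at -0.83 and Myct1 at -0.92.

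Of 9 lineage markers with a probe, 2 were above background on neither native array, among them Cd8a of cytotoxic T cells, and Ms4a1, which encodes CD20 of mature B cells, was above it on the Sf3b1+/- array only. The 6 measured lineage markers summed to 13453 units in wild type and 13087 in Sf3b1+/- cells, most of it Itgam at 0.01. Late neutrophil genes summed to 20264 and 20175 units over 12 genes, with Camp at 0.18 and S100a9 at -0.01. Macrophage and dendritic genes summed to 142065 and 122647 units over 20 measured genes, of which 18 were below 0, 3 were at least 1.5-fold lower and none was higher, with a median of -0.18. Within it all 8 measured macrophage genes were below 0, with a median of -0.34, among them Csf1r, the receptor for macrophage colony-stimulating factor, at -0.50 and Vcam1 at -0.88, while C1qa and C1qc were above background on neither array. Of 13 stroma and endothelium genes with a probe, 7 were measured, and Cdh5, Cxcl12 and Pdgfra were above background on neither array. Col1a1, a bone and fibroblast collagen, had 109 units in wild type and 177 in Sf3b1+/- cells (0.70), and Sparc 715 and 1125 (0.65), whereas Col1a2 stood at 0.05; their part in other results was not tested.

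Transcripts of B-cell precursors were lower in Sf3b1+/- cells. Before a B-cell precursor has rearranged a light chain, it pairs its heavy chain with a surrogate light chain made of Vpreb and lambda5, the product of Igll1. All 4 measured genes of this group were among the 10 with the lowest differences of measured genes, with clone and predicted-gene symbols left out. Vpreb1 had 8189 units in wild type and 1824 in Sf3b1+/- cells, a difference of -2.17 (transplanted -0.61). Igll1 had 979 units on the wild-type and 228 on the Sf3b1+/- array (-2.10, transplanted -0.96). Vpreb3, which assists pre-B receptor assembly, had 6112 and 1474 units (-2.05, transplanted 178 and 88.8), and Vpreb2 912 and 247 units (-1.89, transplanted -0.38). The Sf3b1+/- array thus read 22.3% to 27.1% of the wild-type signal across the 4 genes. Their signals on the transplanted arrays were lower in both genotypes, for example 771 units for Vpreb1 in wild type.

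Vpreb1 and Vpreb2 are near-identical copies on the same chromosome, and their probes may each read both. The 250 bases before their starts are shown because they hold a long identical stretch, in capitals, of 91 bases (RefSeq, GRCm38.p6).
Vpreb1, chr16:16869256-16869505, minus strand: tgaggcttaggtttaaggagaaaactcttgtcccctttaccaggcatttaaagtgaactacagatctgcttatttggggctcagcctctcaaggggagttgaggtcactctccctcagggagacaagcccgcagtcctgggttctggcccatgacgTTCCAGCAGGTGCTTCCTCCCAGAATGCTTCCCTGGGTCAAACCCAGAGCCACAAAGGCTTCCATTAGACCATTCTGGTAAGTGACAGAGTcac
Vpreb2, chr16:17980315-17980564, plus strand: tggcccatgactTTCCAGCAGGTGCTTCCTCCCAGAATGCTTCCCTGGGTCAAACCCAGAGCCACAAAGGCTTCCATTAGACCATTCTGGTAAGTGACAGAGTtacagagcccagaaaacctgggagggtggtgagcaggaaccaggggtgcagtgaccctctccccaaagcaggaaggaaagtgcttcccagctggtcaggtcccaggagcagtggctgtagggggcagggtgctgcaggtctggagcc
The identical run begins 94 bases before the annotated start of Vpreb1 and 238 bases before that of Vpreb2.

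Signalling genes of the B-cell receptor split. Of 13 measured signalling genes 4 were at least 1.5-fold lower. Blnk, the adaptor that couples the pre-B receptor to its kinases, had 4256 units in wild type and 1870 in Sf3b1+/- cells (-1.19, transplanted -1.14). Cd79a, a signalling chain of the receptor, had 54.5 and 22.4 units (-1.28), close to background. Pou2af1, a B-cell coactivator, had 843 and 477 units (-0.82, transplanted -0.65). The kinases Btk and Syk stood at 0.30 and 0.10, Cd79b at -0.47, Cd22 at -0.14 and Jchain, an immunoglobulin joining chain also made by early progenitors, at 0.27. None of the 17 measured genes of the whole list was 1.5-fold higher.

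Among B-lineage transcription factors 5 of 16 measured were at least 1.5-fold lower and none higher. Ebf1, which commits progenitors to the B lineage, had 182 units in wild type and 75.4 in Sf3b1+/- cells (-1.27). Lef1, a Wnt pathway factor of pro-B cells, had 106.8 and 30.7 units (-1.80, and -1.09 with normexp), and Irf4 208 and 89.7 units (-1.21, transplanted -0.62). Ebf1 and Lef1 were not well above background on both transplanted arrays. Id3, an inhibitor of E proteins, was lower at -0.80 and higher in transplanted cells at 0.76, and Bach2 stood at -0.60 (transplanted -0.83). Spib, an Ets factor of B and plasmacytoid dendritic cells, was above background in wild type only, at least 4.17-fold lower in Sf3b1+/- cells. Pax5, the factor that seals B identity, was above background on neither array. The E protein genes lay near 0, with Tcf3 at 0.03, Tcf12 at -0.07 and Tcf4 at -0.02. Bcl11a stood at -0.07 and Ikzf1, which encodes Ikaros, at 0.15. Foxo1, Mef2c and Sox4 were somewhat lower, at -0.42, -0.30 and -0.29. Ikzf4, an Ikaros family gene outside this list and chosen after its values were seen, stood at -1.39, and its other probe gave -1.12.

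Genes of the stage before commitment stood closer to wild type. Over 19 measured genes of lymphoid-primed progenitors the native median was 0.02, with 2 at least 1.5-fold lower and none higher. Dntt, the polymerase that adds bases at immunoglobulin joints, had 48316 units in wild type and 46846 in Sf3b1+/- cells (-0.04), and Ly6d, a mark of B-biased progenitors, stood at 0.02. Il7r, the interleukin-7 receptor, had 190 and 164 units (-0.21), Rag1 124 and 99.5 (-0.32) and Rag2 80.2 and 92.9 (0.21). The exceptions were Bst1, a surface enzyme of pro-B cells, with 84.4 and 28.8 units (-1.55, transplanted -0.67), and Ccr7, a chemokine receptor, at -0.60. In the transplanted pair the same 19 genes had a median of -0.44, with 7 at least 1.5-fold lower, among them Il7r at -1.33 and Dntt at -0.99. The transplanted backgrounds were 7.09% of genes at least 1.5-fold higher and 5.91% lower. The difference between the native and the transplanted values was not tested.

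T and NK cell genes were lower in part. Of 20 measured genes 5 were at least 1.5-fold lower and none higher, with a median of -0.30, and 9 of the 20 lay in the dimmest quintile. With no filter on dim genes the median relative to all genes was -0.12. Slamf7, a cytotoxic cell receptor, had 81.9 units in wild type and 31.0 in Sf3b1+/- cells (-1.40, transplanted -1.30). Il2rb, a shared interleukin-2 and interleukin-15 receptor chain, had 67.1 and 27.9 units (-1.27, transplanted -0.84). Ccl5, a chemokine, had 1858 and 1108 units (-0.75, transplanted -1.10), and Xcl1 and Cd7 stood at -1.23 and -0.75. Cd2, Cd3d, Klrd1 and Eomes were above background on the wild-type array only, and Cd2, an adhesion receptor of T and NK cells, was at least 5.59-fold lower. Tbx21, a transcription factor of NK and T cells, was above background on the Sf3b1+/- array only, at 21.2 and 24.2 units. Nkg7 (0.23), Lck (0.21) and Lat (0.29) were slightly higher. The summed signal of the 20 genes was 24132 units in wild type and 25949 in Sf3b1+/- cells, because the bright Nkg7 makes up most of it.

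**Figure D2:**
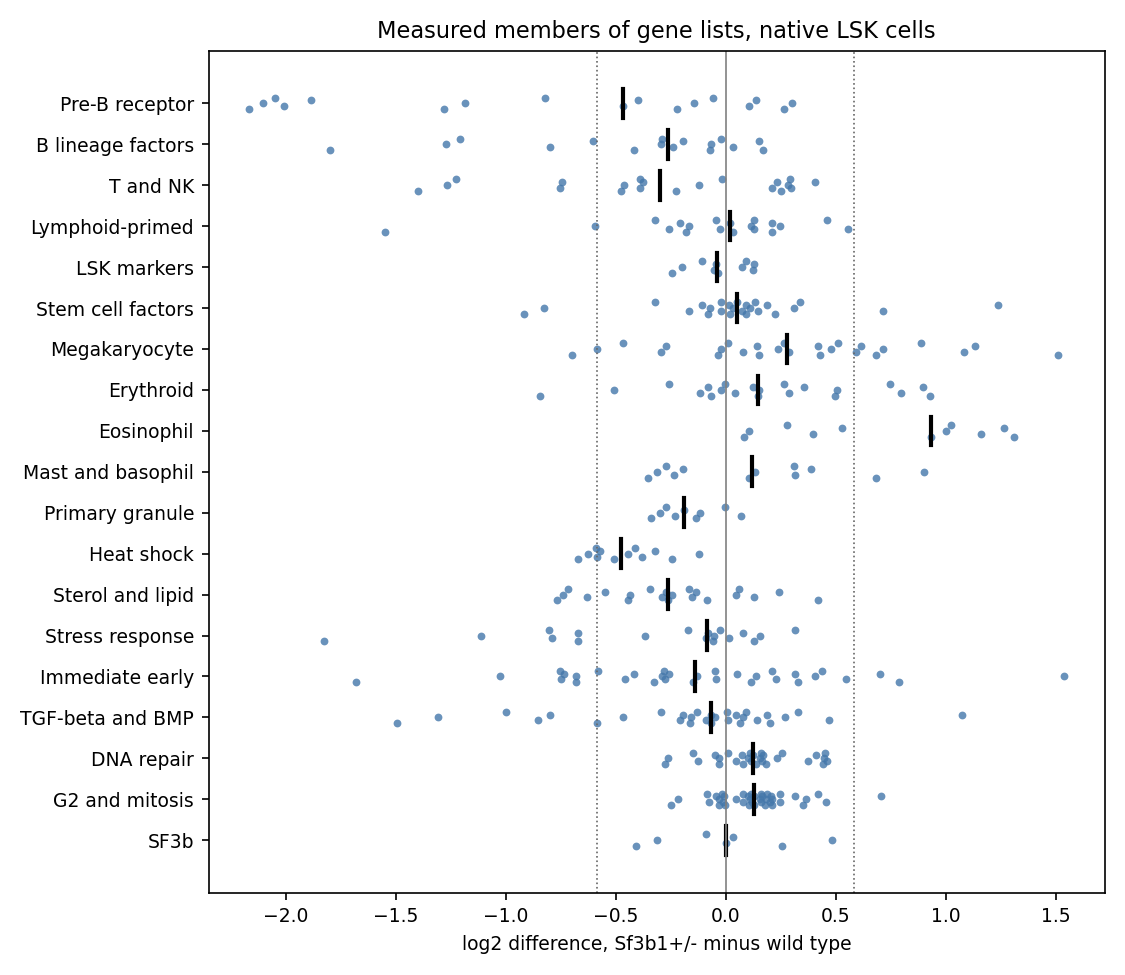
Each point is the native log2 difference (horizontal axis, Sf3b1+/- minus wild type) of 1 measured member of the gene list named at the left, black bars are list medians and dotted lines mark 1.5-fold. The eosinophil list lies to the right of 0 and the heat shock list to the left. The pre-B receptor list spreads from a group near -2, through members near -1, to a group near 0.

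Megakaryocyte genes pointed the other way. Of 26 measured genes 8 were at least 1.5-fold higher and 2 lower, with a median of 0.28. The receptor and adhesion genes carried most of this, with 10 of 11 above 0 and 5 past 1.5-fold. The transplanted median of the megakaryocyte list was 0.68. It was not particular to this list, as stem cell surface genes had a transplanted median of 0.63 and LSK markers 0.52. In native cells those 2 lists had medians of 0.00 and -0.04. Gp1ba, which binds von Willebrand factor on platelets, had 126 units in wild type and 275 in Sf3b1+/- cells (1.13, transplanted 1.19). Its partners in the same receptor were Gp5 at 0.89 (149 and 275 units), Gp1bb at 0.62 and Gp9 at 0.24. Clec1b, the podoplanin receptor, had 78.1 and 165 units (1.08), and its other 2 probes gave 1.01 and 0.10. The integrin genes Itgb3 and Itga2b stood at 0.59 and 0.43.

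Genes of platelet granules and secreted proteins were divided. Ppbp, which encodes a platelet chemokine precursor, had 184 units in wild type and 523 in Sf3b1+/- cells (1.51, transplanted 1.49), and its chemokine neighbour Pf4 had 17167 and 27525 units (0.68, transplanted 0.78). Vwf, von Willebrand factor itself, stood at 0.48 (transplanted 1.82). In contrast Selp, the P-selectin gene, had 371 and 229 units (-0.70, transplanted 0.57) and Thbs1, thrombospondin-1, 95.6 and 63.7 (-0.59, transplanted -0.64). Gata1 and its cofactor Zfpm1 stood at 0.27 and 0.29, while Fli1 stood at -0.02.

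The 250 bases upstream of Ppbp, Gp1ba and Gp5 are printed because these 3 are among the platelet genes with the highest differences and share short GATA-type words, in capitals (GATA, or TATC on the other strand; RefSeq, GRCm38.p6).
Ppbp, chr5:90768268-90768517, plus strand: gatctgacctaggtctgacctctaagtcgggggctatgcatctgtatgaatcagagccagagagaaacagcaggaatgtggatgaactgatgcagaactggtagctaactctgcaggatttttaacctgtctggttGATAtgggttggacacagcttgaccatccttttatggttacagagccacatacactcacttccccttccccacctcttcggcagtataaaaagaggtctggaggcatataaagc
Gp1ba, chr11:70638872-70639121, plus strand: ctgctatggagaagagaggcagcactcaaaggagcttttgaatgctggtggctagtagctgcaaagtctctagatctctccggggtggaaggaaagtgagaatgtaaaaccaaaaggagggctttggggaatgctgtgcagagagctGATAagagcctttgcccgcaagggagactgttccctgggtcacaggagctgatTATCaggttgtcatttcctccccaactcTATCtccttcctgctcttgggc
Gp5, chr16:30310782-30311031, minus strand: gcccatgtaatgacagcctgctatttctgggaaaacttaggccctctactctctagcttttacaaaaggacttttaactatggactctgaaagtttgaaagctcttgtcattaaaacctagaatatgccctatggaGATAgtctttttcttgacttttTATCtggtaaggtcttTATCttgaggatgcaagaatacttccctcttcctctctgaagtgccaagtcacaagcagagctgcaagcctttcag
The word was found 114 bases before the start in Ppbp, 103, 50 and 22 bases before it in Gp1ba, and 114, 92 and 76 bases before it in Gp5. It was present in 9 of 11 promoters of the receptor and adhesion genes and in 5 of 6 of the granule genes, and in 53.6% of all 32851 promoters of the same length. A match of these letters is a description of the sequence and not a binding site.

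Erythroid genes were higher in part, with 4 of 21 measured at least 1.5-fold higher, 1 lower and a median of 0.14. Klf1, the master activator of red cell genes, had 54.2 units in wild type and 101 in Sf3b1+/- cells (0.90), but its transplanted difference was 0.08. Epor, the erythropoietin receptor, had 273 and 385 units (0.50, transplanted 0.70). Among globins Hba-a2 (304 and 579 units, 0.93) and Hba-a1 (51.4 and 86.3 units, 0.75) were higher and Hbb-bt (2789 and 1552 units, -0.85) was lower. The Hba genes are near-identical copies and the Hbb genes close relatives, so their probes may read more than 1 member. Of 14 membrane genes 8 were measured, with Slc4a1, the anion exchanger band 3, near background at 25.4 and 26.1 units and Epb41, a membrane skeleton protein, at 8398 and 7739 units, whereas Ank1, Epb42 and Rhag were above background on neither array. No gene of heme synthesis or iron handling among 23 measured was 1.5-fold apart.

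Eosinophil granule genes were higher in Sf3b1+/- cells. All 11 measured members of the eosinophil list were above 0, against 49.5% of all measured genes, 6 were at least 1.5-fold higher, and the median was 0.93 (transplanted 0.73). Rnase2a, a granule ribonuclease, had 211 units in wild type and 524 in Sf3b1+/- cells (1.31, transplanted 1.40). Ear2 had 457 and 1098 units (1.27, transplanted 1.51), and Ear1, Ear10 and Ear6 stood at 1.02, 1.00 and 0.93. The Ear and Rnase2a genes are a recent family of near-copies, so these values may come from fewer than 5 transcripts. Epx, eosinophil peroxidase, which is outside that family, had 90.6 and 202 units (1.16, transplanted 1.77). Prg2, major basic protein, was the brightest of the list with 1548 and 1667 units (0.11), and Siglecf and Il5ra, surface receptors of the lineage, stood at 0.08 and 0.28. Ccr3 and Alox15, of mature eosinophils, were above background on neither array. With normexp the list median, taken relative to all genes, was 0.55 instead of 0.93.

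Other granulocyte and mast cell genes were closer to wild type. All 9 measured primary granule genes, Mpo (-0.30) and Elane (-0.12) among them, were within 1.5-fold, with a median of -0.19, and so were the 20 measured myeloid factors and receptors. Of 12 mast cell and basophil genes, Alox5, the leukotriene-forming enzyme, had 81.8 units in wild type and 153 in Sf3b1+/- cells (0.90, transplanted -0.02) and Fcer1a, the IgE receptor chain, 132 and 212 (0.68, transplanted -0.42). Retnlg, a late neutrophil gene near background, had 28.4 and 63.2 units (1.15).

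**Figure D3:**
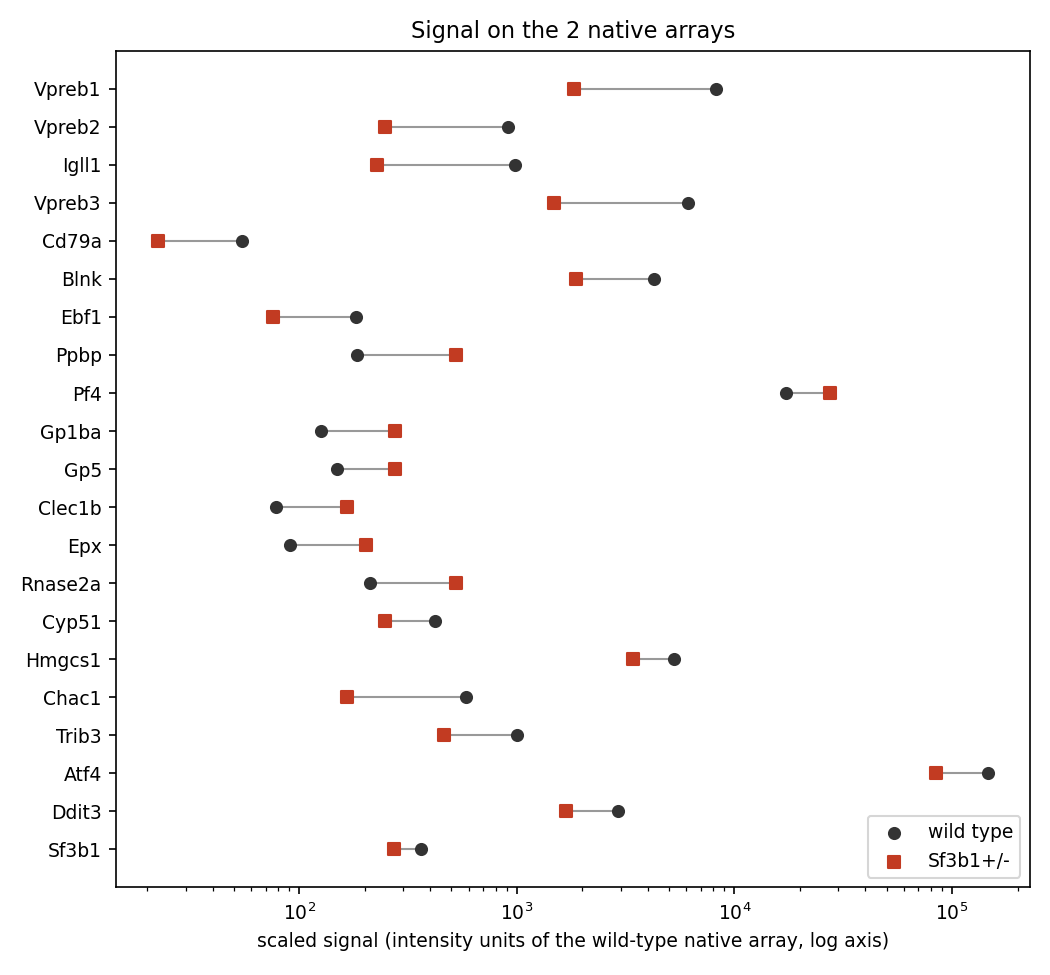
Scaled signal of 21 genes (horizontal axis, intensity units, log scale) on the wild-type native array (dark circles) and the Sf3b1+/- native array (red squares). The first 7 genes, of the B lineage, have the square to the left of the circle, the platelet and eosinophil genes from Ppbp to Rnase2a have it to the right, and the sterol and stress genes have it to the left again.

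Chaperone genes were lower throughout the heat shock list. All 12 measured members were below 0, against 50.5% of measured genes, 4 were at least 1.5-fold lower and the median was -0.48, whereas the transplanted median was -0.02. Hspa5, the chaperone of the endoplasmic reticulum, had 123126 units in wild type and 77203 in Sf3b1+/- cells (-0.67). Hspb1 had 10942 and 7079 units (-0.63) and the inducible Hsp70 gene Hspa1a 7238 and 4821 (-0.59), and both were higher in transplanted Sf3b1+/- cells, at 0.90 and 0.96. The constitutive Hspa8 and Hsp90ab1 differed least, at -0.24 and -0.12. These are bright genes, and the brightest quintile of all measured genes had a median of -0.05. With quantile normalization, which aligns the arrays at every brightness, the list median relative to all genes was -0.41.

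Targets of the integrated stress response, which PERK, GCN2 and related kinases switch on through the factor ATF4, were lower in a subset. Of 18 measured genes 6 were at least 1.5-fold lower and none higher, with a median of -0.08. Chac1, a glutathione-degrading enzyme, had 587 units in wild type and 165 in Sf3b1+/- cells (-1.83, transplanted -0.59). Trib3, a pseudokinase, had 997 and 461 units (-1.11, transplanted 0.02). Atf4 itself had 146710 and 84151 units (-0.80, transplanted -0.35), and Ddit3, which encodes CHOP, 2913 and 1687 (-0.79, transplanted -0.08). Herpud1, of endoplasmic reticulum degradation, stood at -0.67. The amino acid synthesis genes of the list did not share this: Asns stood at 0.02, Psat1 at -0.03, Phgdh at -0.08 and Shmt2 at 0.08. Ppp1r15a, a phosphatase subunit that ends the response, was higher at 0.31.

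Genes of sterol synthesis and uptake were lower in part. Of 21 measured genes 16 were below 0, 4 were at least 1.5-fold lower and none was higher, with a median of -0.26 and a transplanted median of 0.02. Cyp51, lanosterol demethylase, had 421 units in wild type and 247 in Sf3b1+/- cells (-0.77, transplanted -0.08). Hmgcs1, the synthase of an early step of the pathway, had 5293 and 3413 units (-0.63, transplanted -0.11). Insig1, which retains the sterol sensor, stood at -0.55 and Fdps at -0.44. The regulators Srebf2 and Srebf1 stood at 0.06 and 0.13, and the fatty acid gene Fasn at 0.42.

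The upstream 250 bases of Hmgcs1, Cyp51 and Chac1 are given since each list has a known short promoter word, in capitals: CCAAT or its reverse ATTGG in the sterol genes, and TGATGNAA or its reverse TTNCATCA in Chac1 (RefSeq, GRCm38.p6).
Hmgcs1, chr13:119690101-119690350, plus strand: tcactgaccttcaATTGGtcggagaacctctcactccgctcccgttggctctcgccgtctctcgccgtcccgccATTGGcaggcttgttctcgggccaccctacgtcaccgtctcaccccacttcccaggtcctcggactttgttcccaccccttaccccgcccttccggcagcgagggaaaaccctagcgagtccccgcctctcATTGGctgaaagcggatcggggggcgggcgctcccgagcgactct
Cyp51, chr5:4104698-4104947, minus strand: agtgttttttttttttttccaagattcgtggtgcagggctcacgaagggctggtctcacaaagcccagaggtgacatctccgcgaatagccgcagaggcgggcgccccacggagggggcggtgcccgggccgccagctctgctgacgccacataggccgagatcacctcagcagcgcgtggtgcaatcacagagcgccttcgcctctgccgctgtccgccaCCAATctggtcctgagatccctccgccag
Chac1, chr2:119350992-119351241, plus strand: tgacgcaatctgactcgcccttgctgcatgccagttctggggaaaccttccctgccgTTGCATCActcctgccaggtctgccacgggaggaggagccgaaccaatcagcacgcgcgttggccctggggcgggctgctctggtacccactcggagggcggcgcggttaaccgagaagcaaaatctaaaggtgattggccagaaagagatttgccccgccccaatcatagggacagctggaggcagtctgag
CCAAT was found in 11 of 14 sterol list promoters and in 33.8% of all promoters. TGATGNAA was found in 4 of 19 stress list promoters and in 3.45% of all promoters. The sterol response word TCACNCCAC was found in 1 of 14 sterol list promoters and in 1.05% of all.

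Immediate early genes, which respond to signals and cell handling within minutes, went both ways, with 7 of 32 measured at least 1.5-fold lower and 3 higher. The AP-1 genes Atf3 (10900 and 6471 units, -0.75), Jund (-0.75) and Fosb (-0.68) were lower, while Fos (0.44) and Junb (0.14) were not. Fosl2 had 2931 and 912 units (-1.68), but its second probe gave 0.17. Klf10, a target of TGF-beta, had 10335 and 5067 units (-1.03, transplanted -0.97), and Klf6 stood at -0.68. Ccn1, a matricellular protein gene, had 35.9 units in wild type and 104 in Sf3b1+/- cells (1.54, transplanted 2.36), Egr2 701 and 1210 (0.79, transplanted 0.57), and Dusp1 19099 and 31093 (0.70, transplanted 0.40).

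In the TGF-beta and BMP list 6 of 30 measured genes were at least 1.5-fold lower and 1 higher. Of the ligands, Bmp2 had 127 units in wild type and 45.1 in Sf3b1+/- cells (-1.49, transplanted -1.33), whereas Gdf15, a stress-induced member, had 4235 and 8920 (1.07, transplanted 1.44). No receptor passed 1.5-fold, and Tgfbr1 was lowest at -0.47. The feedback inhibitors Skil (3576 and 1442 units, -1.31, transplanted -1.02) and Smad7 (1361 and 754 units, -0.85, transplanted -0.73) were lower, and the second probe of Skil gave -1.55. Among targets, Id3 was lower at -0.80, Thbs1 stood at -0.59 and Id1 at 0.05.

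Survival genes of the Bcl2 family included Mcl1, on which stem cells depend, with 26182 units in wild type and 11546 in Sf3b1+/- cells (-1.18, transplanted -0.24). Its second probe gave -1.18. Bcl2a1d had 322 and 130 units (-1.31, transplanted -1.45), although it belongs to a family of near-copies. The death genes Bmf (-0.75) and Pmaip1 (-0.59) were lower as well, and Bcl2, Bcl2l1, Bax and Bak1 stood between -0.20 and 0.10. Of 28 measured p53 targets 4 were at least 1.5-fold lower and 2 higher, with a median of -0.09. Cdkn1a, the p53-induced inhibitor p21, had 3892 and 2069 units (-0.91, transplanted 0.14), whereas the p53 targets Zmat3 (0.99, transplanted 0.88) and Gdf15 were higher. Ccnd1, cyclin D1, had 1021 and 1536 units (0.59, transplanted 0.80). S phase genes had a median of 0.03 over 40 genes with none past 1.5-fold. Mitosis genes had a median of 0.13 with 29 of 40 above 0, and Ttk, a spindle checkpoint kinase, was the only member past 1.5-fold at 0.71. Among 29 measured Fanconi and break repair genes 22 were above 0, with a median of 0.12 and none past 1.5-fold.

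Cytosolic ribosomal protein genes were all below 0 with the percentile scaling, 81 of 81 measured, with a median of -0.22. These are among the brightest genes, and relative to all genes the median was -0.04 with quantile normalization and -0.06 with cyclic loess. With spike-in scaling all genes shift up by 0.23, about the size of that median. Replication-dependent histone genes had a median of -0.28 over 43 genes. Proteasome and mitochondrial ribosomal genes had medians of -0.07 and -0.03, and none of either set was 1.5-fold apart.

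Of 17 measured homing and adhesion receptors 2 were at least 1.5-fold lower and none was higher, with a median of -0.11. S1pr1, the receptor that draws lymphocytes and progenitors into blood, had 892 units in wild type and 438 in Sf3b1+/- cells (-1.03, transplanted -0.27). Ccr7, a lymph node homing receptor, had 255 and 169 units (-0.60, transplanted -0.88), while Cxcr4, the marrow retention receptor, stood at -0.19. In the next 4 lists a single gene each passed 1.5-fold. Among 24 measured genes of glycolysis and hypoxia Vegfa had 1287 and 781 units (-0.72, transplanted -0.56), and among 21 antioxidant genes and regulators Foxo3, a quiescence factor, had 70.5 and 45.6 (-0.63, transplanted -0.32). Of 39 Hox genes only 12 were measured, and Hoxa6 alone passed 1.5-fold (43.9 and 79.5 units, 0.86). Of 29 measured Polycomb genes only Cbx2 passed it (268 and 433 units, 0.69).

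Some of the genes furthest apart belonged to none of these lists, and they are given here with Mycn and Ccn1, which were named above. Lrmda, a gene of melanosome biology, had 41.8 units in wild type and 511 in Sf3b1+/- cells, a difference of 3.61 that was far beyond any other, and 0.28 in transplanted cells. It was read by 1 probe, and its difference was 2.42 with normexp. Rftn2, a lipid raft protein gene, had 129 and 506 units (1.97, transplanted 0.59). Ptpro, a receptor phosphatase, had 123 and 27.8 units (-2.14, transplanted -0.56). Gfra2, the neurturin receptor, had 656 and 177 units (-1.89) but was near background in transplanted cells, at 19.6 and 16.9 units. Mycn had 504 and 1190 units (1.24, transplanted 1.37). Zfp3 (1.30), Tfcp2l1 (1.29), Wnt10a (1.20) and Zfp958 (-2.02) were dim, at 120 units or less, and with normexp they came to 0.55, 0.40, 0.72 and -0.50. Their transplanted differences were 0.28, -1.44, -0.29 and -0.28, with Tfcp2l1 not well above background on both transplanted arrays. Ptpro and Ccn1 came to -0.95 and 0.60 with normexp. Among genes above background on 1 native array only, the largest bounds were at least 2.96-fold higher for Ctnnd2, 2.62-fold for Ptx4 and 2.54-fold for S100g. The largest in the other direction, after Cd2, were at least 4.81-fold lower for Klra4, an NK receptor with close copies, and 3.60-fold for Nrg1.

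Other probes gave a check within the arrays. Of the genes at least 2-fold apart, 16 had another measured probe, which had the same sign in 15 and was at least 1.5-fold apart the same way in 14. Chosen after their values were seen, Dusp16, a MAP kinase phosphatase, gave -1.69 and -1.35, Crem, a cAMP-responsive factor, -1.35 and -1.41, and Dennd4a -1.20 and -1.49. The transplanted arrays gave the nearest thing to a repeat. Of the 29 genes at least 2-fold higher, 27 were measured there, 22 had the same sign and 15 were at least 1.5-fold higher, with a median of 0.65, while 2 were at least 1.5-fold lower. Of the 85 lower genes 76 were measured there, 67 had the same sign and 37 were at least 1.5-fold lower, with a median of -0.57, while 4 were at least 1.5-fold higher. In the transplanted comparison of all genes, the shares were 50.2% of genes above 0 and 49.8% below.

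**Figure D4:**
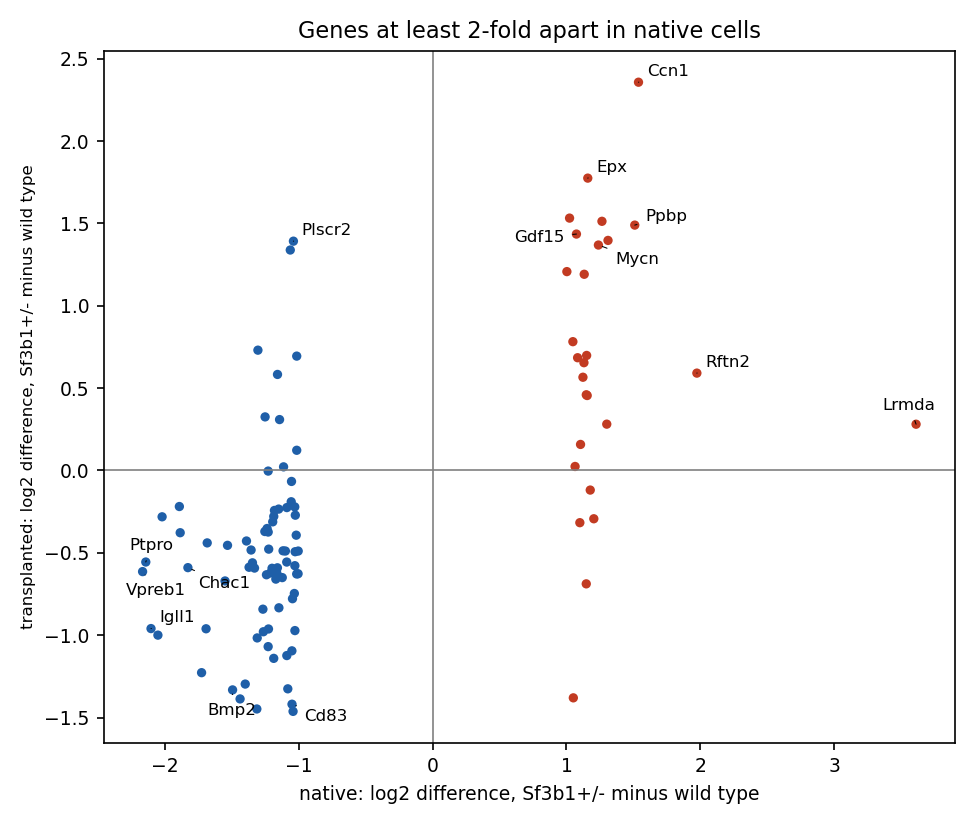
Native log2 difference (horizontal axis) and transplanted log2 difference (vertical axis) for the genes at least 2-fold apart in native cells and measured on both transplanted arrays, 27 higher in red and 76 lower in blue. Most points lie in the lower left and upper right, while Plscr2 lies in the upper left at -1.04 and 1.39.

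The genes beside the targeted locus on chromosome 1 were read in order. Among 25 measured genes on either side of Sf3b1 the median was -0.08, with 1 at least 1.5-fold higher and 3 lower, against a median of -0.04 over 687 measured genes of the chromosome. The 5 measured genes that follow Sf3b1 on 1 side held the extremes. Coq10b, a coenzyme Q chaperone and the next measured gene, had 660 units in wild type and 293 in Sf3b1+/- cells (-1.17, transplanted -0.66), and its other probe gave -1.10. The mitochondrial chaperonin pair Hspd1 and Hspe1 stood at -0.41 and -0.57 (transplanted -0.06 and -0.28) and Mob4 at -0.49 in both pairs of arrays. Rftn2, the fifth, was the 3.93-fold higher gene above. Hspd1 and Hspe1 are thus also members of the heat shock list, whose other 10 measured genes include the 4 past 1.5-fold. Whether the targeting of Sf3b1 bears on its neighbours was not tested.

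**Figure D5:**
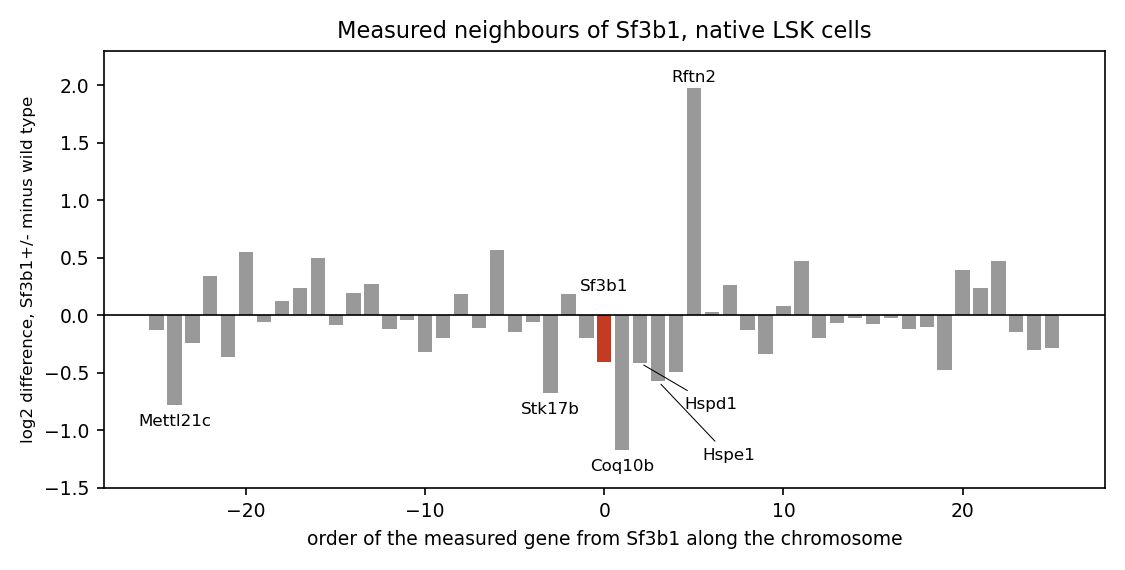
Native log2 difference (vertical axis) of the measured genes on either side of Sf3b1 (red bar) in their order along the chromosome (horizontal axis, 25 genes a side). Coq10b at -1.17 and Rftn2 at 1.97 stand within 5 genes of Sf3b1, and the median over the 50 neighbours is -0.08.

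Probes that the array design names by position alone, of transcribed intervals without a gene name, were read apart. Of 16181 such probes 4328 were measured, with a median of -0.12, and 12 were at least 2-fold higher (0.277%) and 57 lower (1.32%). Among measured named genes, each read by its brightest probe, the shares were 0.235% and 0.69%. Position-named probes were all counted, also several of 1 interval, and the 2 sets were not matched for brightness. The 2 lowest probes were both of the interval at mm9 chr13:108548345-108679004 on the reverse strand. They had 170 and 30.1 units and 857 and 175 units, or -2.50 and -2.29 (transplanted -1.70 and -1.68). The next lowest probe, of the interval at mm9 chr2:128211990-128215223 on the reverse strand, had 493 and 106 units (-2.22, transplanted -1.53). The highest probe, at mm9 chr14:70483555-70484159 on the forward strand, had 32.8 and 94.8 units (1.53, transplanted 1.78). Any other probes of these intervals are not given here. No annotation of that build was used, so the genes there are not named.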

How the data were processed

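RNA of sorted LSK cells was hybridised to 1-colour Agilent arrays of design 028005, 1 array a group, scanned and extracted by Feature Extraction 10.7.1.1 on an mm9 grid, per the file headers. The deposited scanner files hold intensity values: the processed signal is the background-subtracted spot signal, not scaled between arrays. Ratio values make up the deposited series table, where each array's processed signal appears to be scaled by a constant of its own. Its direction is that more signal is a larger value, and the sources used here do not name the tool behind it. Column medians were 0.0810 and 0.0745 for the native wild-type and Sf3b1+/- arrays.

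Spots well above background made up 47.7% and 48.7%, local background medians were 43 and 45 units, no spot was saturated, and the 4 arrays shared 1 slide. On the log2 scale, from the deposited intensity values, outlier spots were left out (113 and 121), spots of a probe were averaged, and each array was shifted by the 75th percentile of the 24732 probes well above background on all 4 arrays. Of 55681 probes 27509 matched a RefSeq symbol (GRCm38.p6 names), and the brightest probe stood for its gene. A gene above background on 1 native array only was given as a lower bound, against the lowest detected signal or its own if higher. Differences were computed without a test, and the calculation was tested on simulated data.

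The genes named were Sf3b1, the 10 highest and 10 lowest differences, the 5 largest bounds each way, and members of the gene lists. List members with the largest differences came first, and any others are said to be chosen after seeing values. The rankings of differences and bounds left out clone and predicted-gene symbols (Gm, LOC, BC, AI, AW, AU or Rik). Some genes that fall under this rule are not reported here. The members, lists and tests were chosen with earlier results of these data known. Of the measured genes 9894 had a RefSeq promoter. Alternatives were other scalings (75th percentile of all probes, median, quantile, cyclic loess, spike-ins), normexp with offset 50, the deposited table, 3 other filters, the mean over probes and outlier spots kept. Tools were R 4.3.3 with limma 3.58.1 and version 1.17.8 of data.table, and Python 3.11.15 with numpy 2.4.6, pandas 2.3.3 and matplotlib 3.10.9.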

Additional observations from a re-analysis of the deposited data

Results flagged for a closer look

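In 10 genes reported here from the lists the native and the transplanted differences were at least 1.5-fold apart in opposite directions. Each rests on 1 array a group, and the difference between the 2 settings was not tested. All measured list members and named genes were screened, and the share of all measured genes doing so was not counted. In the native pair 1.94% of all measured genes were at least 1.5-fold higher and 3.48% lower. In the transplanted pair the shares were 7.09% and 5.91%. Lower in native and higher in transplanted Sf3b1+/- cells were Plscr2 (-1.04 and 1.39), Vcam1, an adhesion receptor of macrophages and stroma (-0.88 and 1.31), Ndn (-0.83 and 0.87), Id3 (-0.80 and 0.76), Jam3, a stem cell junction protein (-0.67 and 1.04), Hspb1 (-0.63 and 0.90) and Hspa1a (-0.59 and 0.96). The opposite order was seen in the histone gene H2bc23 (1.15 and -0.69), Car1, an erythroid carbonic anhydrase (0.79 and -0.87), and the interleukin receptor gene Il18r1 (0.63 and -1.15).

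Probes named by position alone lie outside the comparison of named genes. At least 2-fold lower in native Sf3b1+/- cells were 57 of them, 1.32% of those measured. The share was 0.69% of measured named genes, each read by its brightest probe, and the 2 sets were not matched for brightness.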

How the results depend on the processing

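The 2-fold counts of 29 higher and 85 lower genes stayed within 1.5 times with the 75th percentile of all probes, median scaling, quantile normalization, cyclic loess, the deposited table, a filter on all 4 arrays, the mean over probes and outlier spots kept. They came to 93 and 38 with spike-in scaling, where the median of all genes is 0.23; to 8 and 23 with normexp, which was run on spot medians because the files hold no spot means and was added after the files were seen; to 102 and 175 when any 2 arrays above background were enough; and to 420 and 739 with no filter. The last 2 settings add dim genes. Of the 29 and 85 genes, 29 and 38 kept their 2-fold call with spike-ins, 8 and 23 with normexp and 29 and 76 with quantile normalization. The eosinophil median relative to all genes was 0.93, and 0.55 with normexp. The medians of the pre-B receptor, megakaryocyte, heat shock and sterol lists were taken relative to all genes. They moved by less than the replicate-spot SD of 0.156 under every setting run. A scaling that shifts a whole array by a constant cannot change such a median. The other percentile, median and spike-in scalings and the deposited table were therefore no check on the list medians. Of 492 list medians over all settings, with those scalings counted, 24, of 12 lists, changed sign. Each was 0.064 or less in size as reported and 0.090 or less after the change. Single genes were rerun only for Sf3b1 and the 10 highest and 10 lowest differences. None of these changed sign, but the highest and lowest were picked for their size. Their signs therefore say nothing of the other genes named, which were not rerun. The T and NK median relative to all genes was -0.30, and -0.12 with no filter. Of the 21 genes rerun, 16 moved by more than the replicate-spot SD with normexp and 21 with spike-ins. The median beside Sf3b1 was -0.08 with 25 genes a side, -0.14 with 10 and -0.06 with 50; gene order replaced windows in bases after the files were seen, as the files give no position for named genes, so the planned windows were not run. The planned comparison of intronless with multi-exon genes was not run, as the gene table used here has no exon counts. No paired analysis was possible because each group has 1 array, and no replicate could be left out. Signals near background limit what these arrays show.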
